A study of Mus musculus with 20 samples.

Results

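The p53 pathway is described here across mouse embryonic stem (ES) cells that lack or carry an altered TRIM71. The 36 genes were chosen by symbol from a list of p53 itself, its feedback partners and genes known as p53 targets. All 36 were found among the 13283 symbols of the expression table. Testing was limited to genes whose log2 mean reached 3.32, and 33 members did so in the conditional cells and in the clones alike. Fas, a death receptor, had a mean of -0.08, the kinase gene Plk3 a mean of 2.67 and the stress-induced secreted factor gene Gdf15 a mean of 1.89, and these 3 were not tested.

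Bulk mRNA was sequenced from 20 libraries of C57BL/6 cells that the labels give as male, grown with fetal serum, LIF and 2i. In the conditional system, cells with both Trim71 alleles floxed (Trim71-cond) were compared with cells in which the gene had been deleted (Trim71-KO), with 4 libraries each, coded 1A, 2B, 3A and 3B. The labels do not say how the deletion was brought about, or whether the 4 codes are separate cultures, so the p-values measure the spread between these libraries. Same-coded libraries share a day in the labels. The planned fit did not pair them, and a fit with the code as a block was an alternative setting. In the clonal system, 3 clones were WT (C16, C7 and C5), 3 were homozygous for the R595H change of TRIM71 (R595H/R595H; C14, C20 and C24) and 3 were heterozygous (R595H/+; C15, C21 and C23). C16, C14 and C15 have libraries from each of 2 dates, which were averaged so that each clone counted once. Each genotype therefore rests on 3 cell clones, and a difference between clones that has nothing to do with Trim71 cannot be told apart from one that has at this number.

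The transcription factor p53, encoded by Trp53, is held low by the ubiquitin ligase Mdm2 and its partner Mdm4, and Mdm2 is itself a p53 target, which closes a feedback loop. When DNA damage or other stress frees p53, it raises genes that stop the cell cycle, repair DNA, change metabolism or start apoptosis, and much of this control acts on the p53 protein rather than on its mRNA. Mouse ES cells are known for a high amount of p53 protein and for a weak cell cycle arrest after damage. TRIM71 is an RNA-binding protein and ubiquitin ligase of early embryonic cells that lowers selected mRNAs. No protein was measured in these libraries.

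p53 binds DNA as a tetramer on a pair of decamers, each called a p53 half-site. RefSeq promoter windows on GRCm38.p6, from 250 bases before to 50 bases after a start, were matched by symbol for 28 of the 36 genes, and the half-site consensus was searched in them. The consensus is its own reverse complement, so 1 search covers both strands. It was found for 12 of the 28 genes (42.9%), against 859 of 10357 genes of the table that had a promoter window (8.29%). Counted by window, it was in 13 of 39 member windows (33.3%), against 8.36% of all 32851 promoter windows. The list holds genes known as p53 targets beside p53 and its feedback partners, so these differences may describe how it was made, which was not tested. The windows of the members that were called in a comparison below are shown because their changes can be read beside them, with the half-site in capitals, 5′ to 3′ on the strand of the gene:
Ccng1: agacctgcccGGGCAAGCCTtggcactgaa
Mdm2: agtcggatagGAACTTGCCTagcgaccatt
Polk: catgtagcttGAACTAGCCTcaaacttatt
Bax: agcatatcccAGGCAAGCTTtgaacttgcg
Ei24: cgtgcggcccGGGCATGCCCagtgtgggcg
Sesn1: cttggccttcAAGCTTGTTTttgctggcct
Gadd45a: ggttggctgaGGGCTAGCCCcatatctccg
The Ccng1 window lies at chr11:40755452-40755481 on the minus strand, with its half-site starting 185 bases before the gene start. The Mdm2 window lies at chr10:117710925-117710954 (minus strand, 186 bases before), and the Polk window at chr13:96519399-96519428 (minus strand, 231 bases before). The Bax window lies at chr7:45467080-45467109 (minus strand, 201 bases before), the Ei24 window at chr9:36797325-36797354 (minus strand, 10 bases before) and the Sesn1 window at chr10:41887256-41887285 (plus strand, 173 bases before). The Gadd45a window lies at chr6:67037428-67037457 (minus strand, 40 bases before). All 7 are promoter sequence upstream of the annotated start, apart from the last bases of the Ei24 window. A half-site was found in 3 of the 12 matched genes that rose in Trim71-KO (25%), in all 3 that fell and in 6 of the 10 that were not called there (60%). Matches were thus least frequent among the genes that rose. These counts are small, and the 3 that fell (Bax, Ei24 and Sesn1) lost their calls in an added fit described below. A relation of matches to direction was not tested, and single half-sites were searched, not pairs.

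The values are log2-scale expression levels normalised by the authors, in which low values are probably drawn together, so fold changes of low genes may be understated. Library medians ran from 5.15 to 5.20, and the read depth behind them is unknown. Trim71 was 8.95 ± 0.04 in Trim71-cond and 7.47 ± 0.05 in Trim71-KO (SD, n = 4 each), 9.50 ± 0.03 for the WT clones, 9.58 ± 0.04 for R595H/+ clones and 10.11 ± 0.10 for R595H/R595H clones (SD, n = 3 each), so the deletion label went with a 2.80-fold lower value; which part of the gene was removed is not stated in the labels. Of 10 ES cell markers, 9 were above the limit in every group, while no fibroblast or primitive endoderm marker of the 2 and 5 in the table was, and none of the 5 mesoderm markers was among its symbols. Of the 4 neural markers in the table, 2 were above the limit (Nes at 5.84 to 6.56 and Tubb3 at 3.80 to 4.79). Of the 3 trophectoderm markers, 1 was (Eomes at 3.53 to 3.97). The summed linear level of the ES markers was 7873 to 8557 in the Trim71-cond libraries and 9061 to 9777 in the Trim71-KO libraries, without overlap. The mean log2 level of 5 Y-linked genes was 5.49 to 5.78 in Trim71-cond and 5.20 to 5.33 in Trim71-KO. In the clonal libraries it was 3.56 to 4.13 in R595H/R595H, 3.70 to 5.63 in WT and 3.81 to 5.24 in R595H/+, so several libraries labelled male had low Y-linked levels. The part of these 2 marker differences in the results was not tested, except that the Y-linked mean was entered as a covariate for the clones.

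The table also carries a constraint that bears on every test below. Once the 5 group means are taken off, 20 libraries leave 15 dimensions, but the values varied in 10 of them and were flat in the other 5 across all 13283 genes. Such flat dimensions arise when 5 covariates are regressed out with the groups kept, and no label or note says whether the authors did so. If they did, the flat dimensions make replicates look closer than they were, most of all in R595H/R595H, where they take up 1.94 of 3 dimensions. A fit with these 5 directions as covariates was therefore added after the data had been seen, and its counts are given after those of the planned fits. It takes all 20 libraries, so C16, C14 and C15 enter with 2 libraries each and repeat libraries of 1 clone count as replicates. If covariates were regressed out, its standard errors are lower limits.

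Loss of Trim71 was accompanied by a rise of many p53 pathway genes. In Trim71-KO, 17 of the 33 tested genes rose and 4 fell against Trim71-cond (limma, Benjamini-Hochberg adjusted p under 0.05 over all 9580 genes tested). That is 63.6% of the tested members, where 18.6% of all genes were called, 9.24% higher and 9.37% lower. The members were listed with earlier results of these data known, so this share describes the list and is no independent support. The median change of the 33 was 0.23 on the log2 scale and that of all genes was -0.0028. The largest rises were those of Eda2r (1.66-fold), Perp (1.53-fold), Ercc5 (1.48-fold) and Plk2 (1.47-fold), so the changes were modest. With the 5 flat directions as covariates, 13 members were higher and none lower, where 7.22% of all genes were called. In bulk RNA a shift in the mix of cells and a shift in RNA per cell cannot be told apart.

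**Figure D1:**
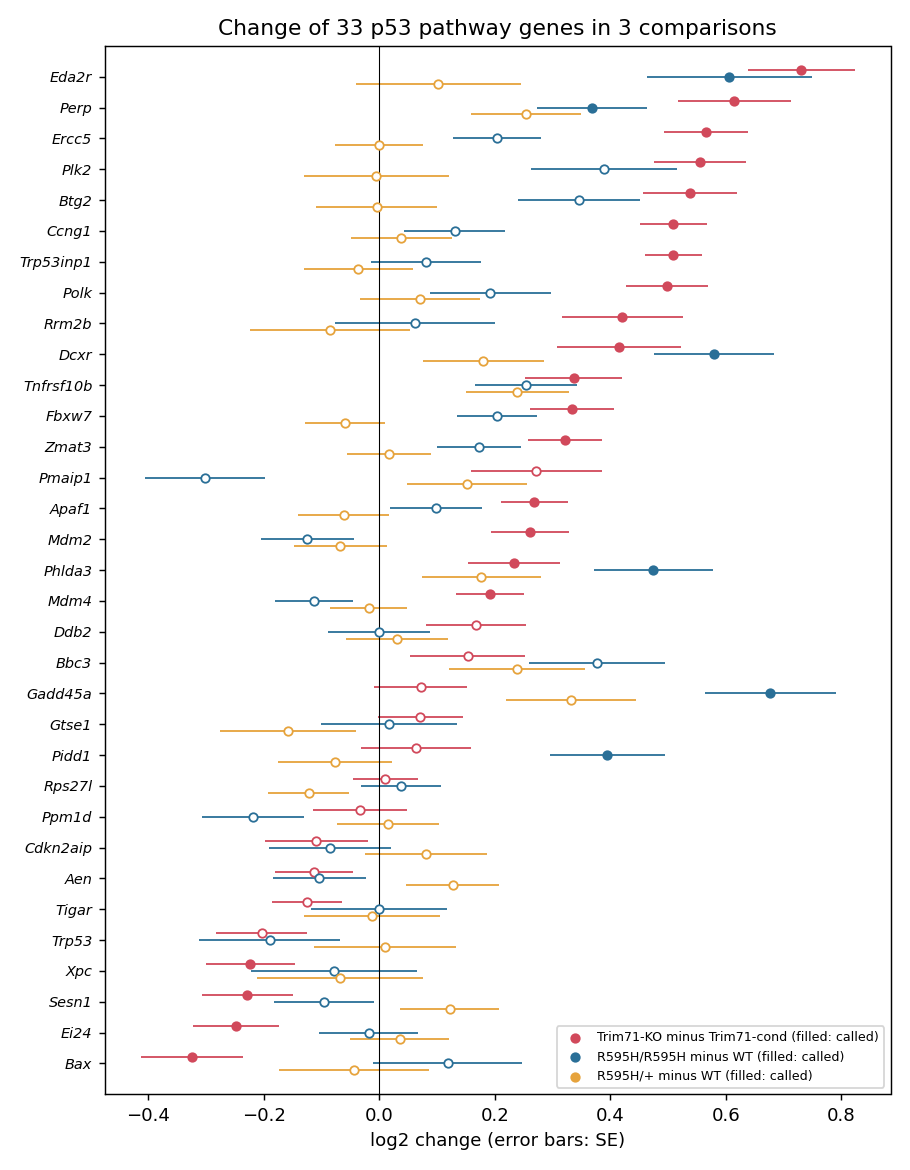
Log2 change of each of the 33 tested genes (rows) in 3 comparisons, with the SE as bar and filled points for calls at an adjusted p under 0.05. The Trim71-KO points of 24 genes lie to the right of 0, and the R595H/+ points gather around 0 with none filled.

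Trp53 mRNA itself did not pass the test. Its levels were 6.47, 6.53, 6.75 and 6.58 in the Trim71-cond libraries 1A, 2B, 3A and 3B and 6.51, 6.33, 6.39 and 6.28 in the Trim71-KO libraries. The groups overlapped through code 1A, and the difference was -0.20 ± 0.08 (SE; adjusted p = 0.0757). The 8 core and feedback genes included 4 that rose and none that fell, and with the flat directions as covariates the 2 that rose were Ccng1 and Trp53inp1. Mdm2, the ligase that removes p53, was 7.955, 7.80, 7.75 and 7.91 in Trim71-cond and 7.98, 8.19, 8.05 and 8.22 in Trim71-KO. Every Trim71-KO library was above every Trim71-cond library, by a narrow margin at code 1A, and the rise was 0.26 ± 0.07 (SE; adjusted p = 0.0108). With those covariates, the same difference had an SE of 0.09 and an adjusted p of 0.0646. Mdm4, which blocks the transactivation domain of p53, was 10.12, 9.96, 10.10 and 9.90 against 10.15, 10.34, 10.26 and 10.105 in Trim71-KO. It rose by 0.19 ± 0.06 (adjusted p = 0.0270) with overlapping groups, and was not called in 6 of 16 alternative settings.

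Ccng1 and Trp53inp1 changed more clearly than Mdm2. Ccng1, a cyclin gene that is a classical p53 target and acts on Mdm2, was 10.38, 10.34, 10.16 and 10.48 in Trim71-cond and 10.75, 10.95, 10.82 and 10.87 in Trim71-KO. Its groups lay apart, with a rise of 0.51 ± 0.06 (adjusted p = 5.94e-06). Trp53inp1, a stress protein gene that takes part in p53 activation and in autophagy, was 10.57, 10.50, 10.445 and 10.59 in Trim71-cond. In Trim71-KO it was 10.95, 11.14, 11.07 and 10.98, also apart, and it rose by 0.51 ± 0.05. Both were called in all 16 alternative settings. The 4 core genes not called were Trp53, Ppm1d, a phosphatase gene that switches the response off (-0.03 ± 0.08), Cdkn2aip, which encodes a partner of ARF (-0.11 ± 0.09), and Pidd1, a death-domain gene (0.06 ± 0.09).

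**Figure D2:**
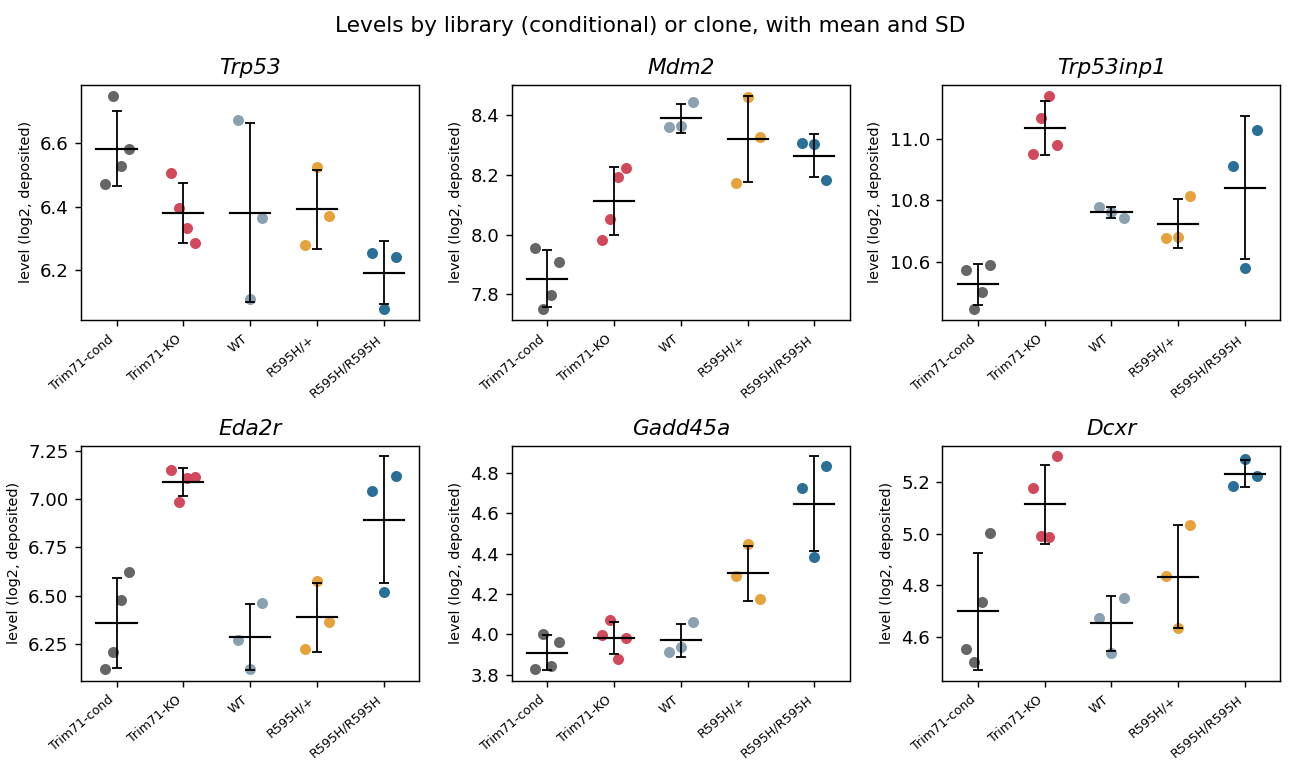
Log2 level of 6 genes in the 5 groups; points are libraries in the conditional system and clones in the clonal system, lines are means and bars are SD. Mdm2 and Trp53inp1 stand higher in Trim71-KO than in Trim71-cond, while Gadd45a stands higher in R595H/R595H and is level in the conditional system.

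Among the cell cycle and growth genes, 3 of 5 tested rose and none fell, and the same 3 were called with the flat directions as covariates. Plk2, a polo-like kinase gene, was 6.42, 6.65, 6.48 and 6.50 in Trim71-cond and 7.19, 6.90, 7.175 and 6.99 in Trim71-KO, a rise of 0.55 ± 0.08. Btg2, an antiproliferative gene, was 6.09, 6.05, 6.36 and 6.16 against 6.81, 6.74, 6.57 and 6.68, a rise of 0.54 ± 0.08. For both genes the lowest Trim71-KO library was above the highest Trim71-cond library. Fbxw7, the substrate receptor of a ubiquitin ligase that degrades cyclin E, ran from 7.21 to 7.34 in Trim71-cond and from 7.47 to 7.80 in Trim71-KO, a rise of 0.33 ± 0.07. Gadd45a, a growth arrest gene, changed by 0.07 ± 0.08 and Gtse1, which encodes a protein that restrains p53 in G2, by 0.07 ± 0.07, and neither passed the test.

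The apoptosis and survival group held the 2 largest rises and the largest fall of all members, with 6 of 11 tested genes higher and 2 lower. Eda2r, a receptor of the tumour necrosis factor family, was 6.12, 6.48, 6.21 and 6.63 in Trim71-cond and 7.15, 7.11, 6.98 and 7.11 in Trim71-KO. Its groups were well apart, and the rise was 0.73 ± 0.09 (adjusted p = 1.68e-05). Perp, which encodes a membrane protein of desmosomes and apoptosis, was 4.83, 5.04, 4.76 and 4.52 against 5.37, 5.50, 5.33 and 5.43, a rise of 0.61 ± 0.10. Tnfrsf10b, the death receptor gene for TRAIL, was 5.36, 5.33, 5.50 and 5.38 against 5.79, 5.73, 5.83 and 5.56, a rise of 0.34 ± 0.08. Zmat3, an RNA-binding splicing regulator gene, rose by 0.32 ± 0.06 from a range of 7.43 to 7.57 to one of 7.74 to 7.94. Apaf1, the scaffold of the apoptosome, rose by 0.27 ± 0.06 from 7.97 to 8.07 up to 8.20 to 8.365. These 5 genes were called in every setting in which they were tested, and with the flat directions as covariates they were the only genes of the group called.

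Other members of that group were less steady. Phlda3, which restrains AKT, was 5.47, 5.54, 5.56 and 5.36 in Trim71-cond and 5.78, 5.74, 5.68 and 5.67 in Trim71-KO. Its rise was 0.23 ± 0.08 (adjusted p = 0.0469), and the call was lost in 11 of 15 settings, among them the block (adjusted p = 0.106) and the flat directions (adjusted p = 0.171). Bax, the pore-forming effector of apoptosis, was 6.83, 7.14, 7.14 and 7.01 in Trim71-cond and 6.90, 6.55, 6.56 and 6.80 in Trim71-KO. It was lower in 3 of the 4 codes and overlapped through 1A, with a change of -0.33 ± 0.09 (adjusted p = 0.0140). Ei24, an endoplasmic reticulum protein gene, was 7.89, 7.59, 7.80 and 7.83 against 7.44, 7.66, 7.59 and 7.42, a change of -0.25 ± 0.07 with overlapping groups. Bax lost its call in 4 of 16 settings and Ei24 in 7 of 16. Among these was the fit with the flat directions as covariates (adjusted p = 0.123 for Bax and 0.0904 for Ei24). Bbc3 and Pmaip1, the genes of the BH3-only killers PUMA and NOXA, changed by 0.15 ± 0.10 and 0.27 ± 0.11, and Aen, a nuclease gene, by -0.11 ± 0.07; none of the 3 passed the test.

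In the DNA repair and nucleotide group 3 of 5 genes rose and 1 fell, and with the flat directions as covariates Ercc5 and Polk were called. Ercc5, the 3′ endonuclease of nucleotide excision repair, was 7.17, 7.14, 6.87 and 7.12 in Trim71-cond and 7.54, 7.65, 7.71 and 7.66 in Trim71-KO. It rose by 0.57 ± 0.07, and by 0.50 ± 0.07 when the low Trim71-cond library 3A was left out. Polk, a translesion polymerase gene, was 6.74, 6.70, 6.57 and 6.69 against 7.09, 7.14, 7.30 and 7.17, a rise of 0.50 ± 0.07 with the groups apart. Rrm2b, the p53-inducible subunit of ribonucleotide reductase, was 6.76, 6.50, 6.53 and 6.59 against 6.85, 7.44, 6.95 and 6.83. It rose by 0.42 ± 0.10 (adjusted p = 0.00820) and by 0.28 ± 0.08 without the high Trim71-KO library 2B, and had an adjusted p of 0.0680 with the flat directions as covariates. Xpc, a damage sensor gene, was 6.44, 6.42, 6.42 and 6.53 against 6.27, 6.29, 6.07 and 6.29, a change of -0.22 ± 0.08. Its call at an adjusted p of 0.0458 was lost in 13 of 16 settings, among them the block (adjusted p = 0.0910). Ddb2, another damage sensor gene, changed by 0.17 ± 0.09 and did not pass the test.

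Of the 4 tested genes of metabolism, redox balance and translation, 1 rose and 1 fell, and with the flat directions as covariates Dcxr alone was called. Dcxr, an enzyme of xylulose metabolism, was 4.55, 4.74, 4.50 and 5.00 in Trim71-cond and 5.18, 4.99, 4.99 and 5.30 in Trim71-KO. The highest Trim71-cond library lay just above the lowest Trim71-KO library, and the rise was 0.41 ± 0.11 (adjusted p = 0.0103). Sesn1, a stress-responsive inhibitor of mTORC1 signalling, was 6.80, 6.93, 6.77 and 7.05 against 6.74, 6.70, 6.70 and 6.50. Its change was -0.23 ± 0.08 (adjusted p = 0.0475), and the call was lost in 11 of 16 settings, among them the block (adjusted p = 0.0836). Tigar, which lowers glycolytic flux, changed by -0.13 ± 0.06 and the ribosomal protein gene Rps27l by 0.01 ± 0.06, and neither passed the test.

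Within the 4 codes, the median difference of all 33 tested members was 0.17 in 1A, 0.22 in 2B, 0.19 in 3A and 0.23 in 3B. Over all genes it was between -0.0089 and -0.0010. The 17 genes that rose, which were picked from these same libraries, were above 0 in every code. Of the 4 genes that fell, 3 were below 0 in 1A and in 2B and 4 in 3A and in 3B. The groups did not overlap for 15 members that were higher and 3 that were lower, where 10.6% and 10.2% of all genes did the same.

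**Figure D3:**
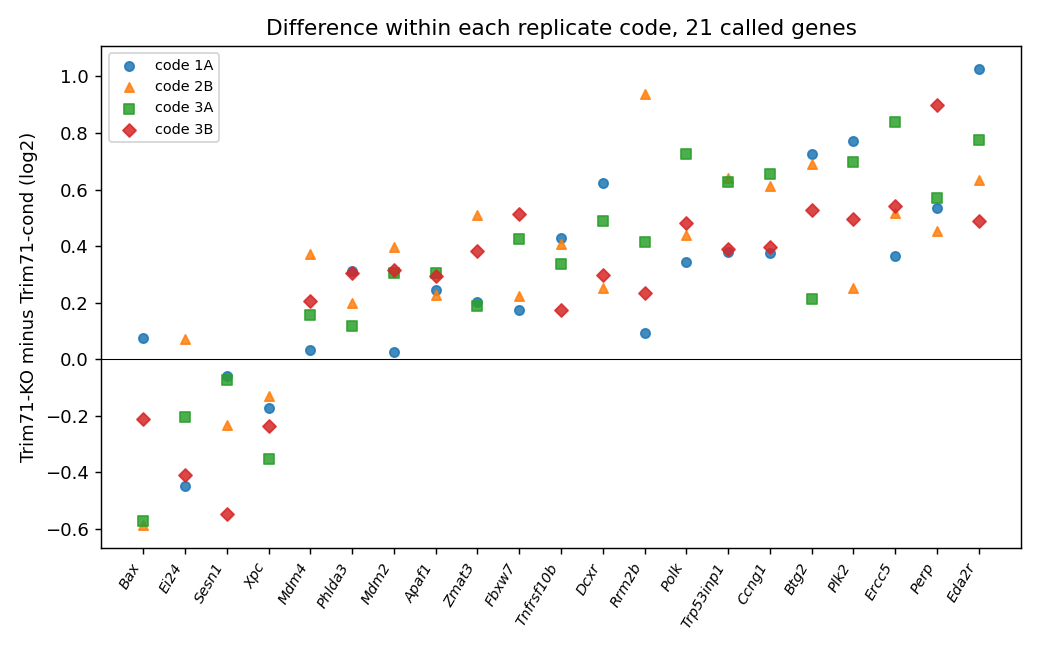
Difference between Trim71-KO and Trim71-cond (log2) within each replicate code for the 21 called genes, ordered by their change. Every point of the 17 genes at the right lies above 0, while Bax and Ei24 each have 1 point above 0.

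The rise was less uniform among other genes of the pathway. Of 33 tested genes in a second list of p53 targets, 7 rose and 2 fell in Trim71-KO (27.3% called, where 18.6% of all genes were). With the flat directions as covariates 6 rose and none fell (18.2%, where 7.22% of all genes were called). Ephx1, an epoxide hydrolase gene, rose by 0.61 ± 0.10, Abhd4 by 0.46 ± 0.08, Zfp365 by 0.41 ± 0.08 and Rap2b by 0.37 ± 0.08, and 24 were not called. Cdkn1a, the gene of the cell cycle inhibitor p21, was named after its values were seen: it changed by 0.13 ± 0.08 (adjusted p = 0.293). Among 23 regulators of p53, 2 rose and 3 fell (21.7% called), a share near that of all genes, with the arginine methyltransferase gene Prmt5 lower by 0.31 ± 0.06, the kinase gene Aurka by 0.24 ± 0.06 and the lysine methyltransferase gene Smyd2 by 0.43 ± 0.11. Trim24, the gene of a ubiquitin ligase for p53, rose by 0.18 ± 0.06. Prmt5 and Smyd2 were the 2 called with the flat directions as covariates.

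Upstream and downstream of p53 the counts were also mixed. Among 20 genes of DNA damage signalling, 3 rose and 2 fell (25% called, where 18.6% of all genes were): Topbp1 rose by 0.22 ± 0.05 and Prkdc by 0.20 ± 0.06, while Rad50 changed by -0.24 ± 0.06 and Rnf8 by -0.28 ± 0.08. With the flat directions as covariates Topbp1 alone was called. In a list of other BCL2 family genes, none of the 9 tested was called, where 18.6% of all genes were. None of the 9 had an unadjusted p under 0.05, where 32.7% of all genes did. That list leaves out the members Bax, which was called lower, and Pmaip1 (limma, unadjusted p = 0.0312). With 9 genes, 0 cannot be told from 18.6%. Of 20 cell cycle genes that p53 is known to lower through RB and the DREAM complex, 2 rose and 7 fell (45% called), where 9.24% of all genes rose and 9.37% fell. The cyclin E gene Ccne1 changed by -0.80 ± 0.08, Mcm5 by -0.37 ± 0.06 and Mcm2 by -0.32 ± 0.06, while Cenpf rose by 0.22 ± 0.05, and these 4 were the ones called with the flat directions as covariates. The 2 other p53 family genes were below the limit and were not tested.

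In the R595H/R595H clones fewer members were called than in the deletion, as were fewer of all genes, and each member called was higher. Against WT, 6 of the 33 were called higher and none lower (18.2%), where 3.42% of all 9587 genes were called and 2.19% were called higher. Here too the list was made with earlier results of these data known, so the share is no independent support. The 6 were Gadd45a, Eda2r, Dcxr, Phlda3, Pidd1 and Perp. With the flat directions as covariates and repeat libraries counted as replicates, the count was 6, where 4.05% of all genes were called, and 5 genes were in both sets: Plk2 came in (adjusted p = 0.0477) and Perp went out (0.0587). The median change of the 33 was 0.10, against -0.0023 for all genes. The count was 1 to 9 when 1 clone was left out, 1 without the WT clone C7, 2 without C14 or C5, 3 without C16 or C15 and 9 without the R595H/+ clone C21. It was 3 when the Y-linked mean was a covariate and 3 on the 5/2 libraries alone, and with equal totals it was 3, when 45.9% of the genes called were higher in place of 64.0%.

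Gadd45a, which slows the cell cycle and acts in demethylation and stress kinase signalling, had the largest change. It was 3.91, 3.94 and 4.06 in the WT clones C16, C7 and C5 and 4.73, 4.38 and 4.83 in the R595H/R595H clones C14, C20 and C24. The groups lay apart, with a rise of 0.68 ± 0.11 (adjusted p = 0.00736; 1.60-fold). It was called in all 16 settings, with a value of 0.58 to 0.81. In the R595H/+ clones C15, C21 and C23 it was 4.29, 4.45 and 4.17, above all WT clones and overlapping with R595H/R595H. Within the 20/1 libraries, with 1 clone per genotype, R595H/R595H was 0.74 above WT, and within the 5/2 libraries the difference was 0.70 ± 0.12.

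Dcxr was 4.67, 4.54 and 4.75 in WT and 5.19, 5.29 and 5.22 in R595H/R595H, apart, with a rise of 0.58 ± 0.10 (adjusted p = 0.00967). It was called in 15 of the 16 settings that tested it and had an adjusted p of 0.0598 without the WT clone C7. Eda2r was 6.27, 6.12 and 6.465 in WT and 7.04, 6.52 and 7.12 in R595H/R595H. Clone C20 lay just above the WT clones and the other two far above, and the rise was 0.61 ± 0.14 (adjusted p = 0.0343). The call was lost in 6 of 17 settings, each of which left out 1 clone (C16, C14, C15, C7, C5 or C24), with an adjusted p of up to 0.140. Within the 20/1 libraries the difference was 0.59 for Dcxr and 0.69 for Eda2r, and within the 5/2 libraries 0.55 ± 0.11 and 0.63 ± 0.14.

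Phlda3 was 5.52, 5.16 and 5.45 in WT and 5.86, 5.84 and 5.85 in R595H/R595H, a rise of 0.47 ± 0.10 (adjusted p = 0.0246). Perp was 4.86, 4.63 and 4.84 against 5.18, 5.13 and 5.13, a rise of 0.37 ± 0.10 (adjusted p = 0.0482). Pidd1 was 4.21, 3.83 and 4.16 against 4.49, 4.42 and 4.48, a rise of 0.39 ± 0.10 (adjusted p = 0.0446). In these 3 genes the WT clone C7 was the lowest and the R595H/R595H clones were nearly equal, and leaving out C7 gave adjusted p-values of 0.0916, 0.155 and 0.128. On the 5/2 libraries alone their adjusted p-values were 0.0585, 0.0702 and 0.0941, and with the Y-linked covariate 0.0680, 0.0598 and 0.0598. Within the 20/1 libraries the 3 differences were 0.43, 0.35 and 0.36.

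Of the core and feedback genes, Pidd1 was called, and Trp53, Mdm2 and Mdm4 were lower in the mean without passing the test. Trp53 was 6.67, 6.11 and 6.36 in WT and 6.25, 6.08 and 6.24 in R595H/R595H, a difference of -0.19 ± 0.12 (adjusted p = 0.391). Mdm2 was 8.36, 8.36 and 8.45 against 8.31, 8.31 and 8.18, and the difference was -0.12 ± 0.08 (adjusted p = 0.391). Mdm4 was 10.16, 10.27 and 10.27 against 10.15, 10.06 and 10.16, a difference of -0.11 ± 0.07. For Mdm2 and Mdm4 all R595H/R595H clone values were below all WT clone values, for Mdm4 narrowly (10.157 against 10.164), and neither difference passed the test. Single libraries overlapped: the WT library C16 5/2 was 8.25 for Mdm2 and 10.08 for Mdm4, below the highest R595H/R595H library (8.33 and 10.16). The mean changes had the opposite sign in the deletion, where the Mdm4 groups overlapped. Over the 33 members the clones did not overlap for 13 higher and 4 lower, where 14.3% and 15.4% of all genes did the same.

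**Figure D4:**
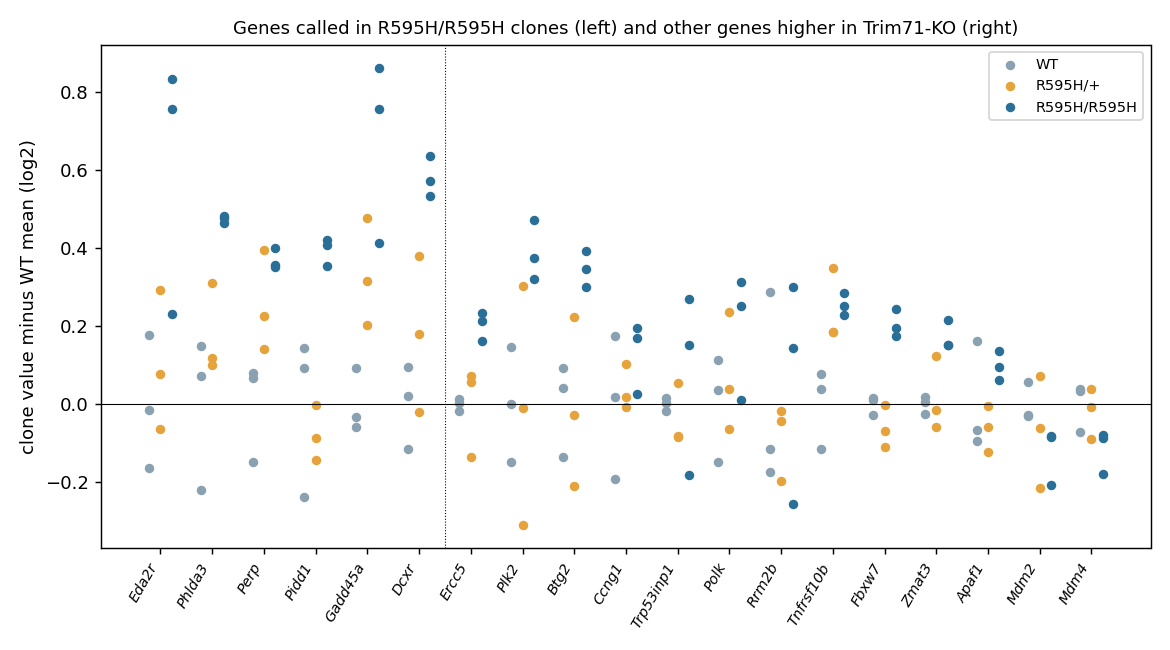
Value of each clone minus the WT mean (log2) for the 6 genes called in R595H/R595H (left of the dotted line) and the other 13 genes that rose in Trim71-KO (right). The R595H/R595H clones lie above every WT clone for the 6 at the left. They lie below them for Mdm2 and, by a narrow margin, for Mdm4 at the far right.

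The remaining members of the R595H/R595H comparison were not called. Bbc3 differed by 0.38 ± 0.12 (adjusted p = 0.0908), Plk2 by 0.39 ± 0.13 (0.0978) and Btg2 by 0.35 ± 0.11 (0.0850), each with all 3 clones above all WT clones. Pmaip1 differed by -0.30 ± 0.10 (adjusted p = 0.115), with the clones below WT. In the second target list 2 of 33 rose, Crip2 by 0.52 ± 0.09 and Psrc1 by 0.46 ± 0.08, and none fell. That is 6.06% called, where 3.42% of all genes were. In DNA damage signalling 2 of 20 genes were called (10%): the histone gene H2afx rose by 0.42 ± 0.10 and Rad50 changed by -0.42 ± 0.08. None of 23 p53 regulators, 9 genes of the BCL2 list and 20 RB and DREAM genes was called, and lists this short cannot tell 0 from 3.42%. Crip2, Psrc1, H2afx and Rad50 were also the genes of these lists called with the flat directions as covariates.

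A single R595H allele gave no call. Against WT, 0 of the 33 members and 0% of the 9587 genes tested were called by limma in R595H/+ clones, and 3 members and 734 genes (7.66%) had an unadjusted p under 0.05. The 3 were Gadd45a at 0.33 ± 0.11, Perp at 0.25 ± 0.10 and Tnfrsf10b at 0.24 ± 0.09, with adjusted p-values of 0.567 to 0.569. The fit with the flat directions also gave 0, as did each alternative setting. The clones did not overlap for 6 members that were higher and none that was lower, where 6.27% and 6.19% of all genes did the same. Between R595H/R595H and R595H/+ 1 member was called, where 0.772% of all genes were. This was Pidd1, which was 3.98, 4.07 and 3.93 in R595H/+ and higher by 0.47 ± 0.10 in R595H/R595H (adjusted p = 0.0430). With the flat directions 2 members were called, Pidd1 and Eda2r. Without C16, C14, C15, C21 or C5 the count was 0, without C20 it was 2 and without C23 it was 3, and the call of Pidd1 was lost in 11 of 16 settings. Of the other lists, H2afx was the single gene called in this comparison, higher by 0.49 ± 0.10, with the flat directions too.

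The deletion and the homozygous change were compared side by side, since they share no control library. Eda2r, Phlda3, Perp and Dcxr were called higher in both, which is 19% of the 21 members called in the deletion and 66.7% of the 6 called in the clones. With the flat directions as covariates the genes called higher in both were Eda2r, Dcxr and Plk2, which is 23.1% of 13 and 50% of 6: Phlda3 was not called in the deletion and Perp not in the clones. For all genes, those called in both with the same sign were 6.60% of the 1774 and 35.9% of the 326. Of the 17 members that rose in the deletion, 15 were above 0 in R595H/R595H, with a median of 0.20, where 75.1% of all genes that rose in the deletion were above 0, with a median of 0.11. Mdm2 and Mdm4 were the 2 below 0. The shares of members rest on few genes, listed with earlier results of these data known, and are no independent support.

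The difference between the 2 effects was called for 2 members, where 1.42% of all 9585 genes were called. Trp53inp1 rose by 0.51 in the deletion and differed by 0.08 in the clones, a difference of 0.43 ± 0.11 (adjusted p = 0.0360). Gadd45a differed by 0.07 in the deletion and rose by 0.68 in the clones, a difference of -0.60 ± 0.14 (adjusted p = 0.0219). With the flat directions as covariates Gadd45a alone was called. The count ran from 0 to 4 when 1 library or clone was left out, 0 in each case without the Trim71-cond library 3A, the Trim71-KO library 2B or the clone C16, C14 or C7. It was 1 without Trim71-KO 3A, Trim71-cond 2B, C20 or C24 and 4 without Trim71-cond 1A or C21. For Mdm2 the difference was 0.39 ± 0.11 and for Mdm4 0.30 ± 0.09, with adjusted p-values of 0.0615 and 0.0825. Outside the members, the difference of effects was called for Crip2 (-0.50 ± 0.13), Prkdc (0.38 ± 0.10) and Ccne1 (-0.52 ± 0.13), and for none of the 3 with the flat directions as covariates. The 2 systems differ in their starting cells as well as in genotype, and these cannot be told apart in this test.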

How the data were processed

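mRNA libraries of 20 mouse ES cell samples were made with a poly(A) kit and read in pairs, per the labels' protocols, and CASAVA 1.8, STAR and DESeq2 are named in the submitters' processing notes. The authors deposited log2-scale values per gene symbol. Base 2 was inferred from the tools named. No label or note names the build, counting step or transformation, so depth and counting error are unknown. The members, lists and tests were chosen with earlier results of these data known. The text gives values for Trp53, Mdm2, Mdm4 and each member called in the deletion or the R595H/R595H comparison, and up to 4 called genes per other list and comparison.

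limma 3.58.1 (R 4.3.3) was run on the deposited values with lmFit and eBayes (trend, robust). Genes needed a mean of at least 3.32, the log2 of 10, over the samples of the fit. p-values were Benjamini-Hochberg adjusted over all genes tested, and a gene was called under 0.05. Fits held 8 conditional libraries, 9 clone means, or all 17 together for the difference of effects. The fit was tested on simulated data with independent noise. Those data hold no flat dimensions, so that test does not show how the planned fits behave with them. Titles gave the dates, since another label differs for 10 clonal libraries.

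After removal of the 5 group means, the 5 flat dimensions had a root mean square of at most 4.77e-07, and the smallest varying one 0.103. They enter the added fit as covariates, with 10 residual dimensions and the 3 clones of 2 dates counted by library. The libraries of clone C14 from the 2 dates differed with an SD of 0.0302 over genes, against 0.133 for C15 and 0.137 for C16. The labels give same-coded conditional libraries the same day, which pairs them. Their deviations from the group means correlated at -0.89 in 1A, -0.0895 in 2B, -0.117 in 3A and 0.13 in 3B over 9580 genes, and the flat dimensions force part of this. Alternatives were other low-value limits, other scalings, a plain limma fit, the block, 1 joint fit, 1 date, the Y-linked covariate and each library or clone left out. Promoters came from RefSeq.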

Additional observations from a re-analysis of the deposited data

Results flagged for a closer look

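In 72 sets of 4 libraries (36 genes in Trim71-cond and in Trim71-KO), 2 held a library that stood far from the other three, and chance alone marks about 1 in 20 such sets. Xpc was 6.0653 in the Trim71-KO library 3A, where the others lay between 6.27 and 6.29. Ercc5 was 6.87 in the Trim71-cond library 3A, where the others lay between 7.12 and 7.17.

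Trp53inp1 and Gadd45a were marked because the deletion and the R595H/R595H change differed in their effect by the limma test of the difference. The value was 0.43 for Trp53inp1 and -0.60 for Gadd45a.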

How the results depend on the processing

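No member that was called turned its direction in any setting. In Trim71-KO the count of 21 members was 16 to 20 over the planned settings, 18 with the code as a block, and 13 with the 5 flat directions as covariates, a setting chosen after seeing the data; leaving out 1 library gave 16 to 19. Blocking on the code, which the labels pair by day, ended the calls of Xpc, Sesn1 and Phlda3 and changed no other call. In R595H/R595H against WT the count of 6 was 1 with a limit of log2 of 50, which leaves 5 of the 6 genes untested, and 3 with equal totals, with the 5/2 libraries alone or with the Y-linked covariate; leaving out 1 clone gave 1 to 9. In R595H/R595H against R595H/+ the count of 1 was 0 with the limit of log2 of 50 or the Y-linked covariate and 2 with the flat directions; leaving out 1 clone gave 0 to 3. With equal totals and with the 5/2 libraries alone the 1 call was a lower gene and not Pidd1. For the difference of effects the count of 2 was 1 with the limit of log2 of 50, with limma without trend and robust, or with the flat directions, and 0 to 4 when 1 library or clone was left out. R595H/+ against WT gave 0 in each setting. Over all genes, the 1783 called in the deletion were 692 with the flat directions, and the 328 called in R595H/R595H were 177 with the limit of log2 of 50, 157 with equal totals, 191 with the 5/2 libraries alone and 135 with the Y-linked covariate. The cause of these changes was not tested, apart from the untested genes.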
